A study of Mus musculus with 2 samples.

Results

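The genes described here are 37 genes of the actin cytoskeleton and its contractile apparatus, many of them known targets of serum response factor (SRF). They were chosen by gene symbol, from a list drawn up with the values of these libraries known, and each of the 37 had 1 record among the 55487 records that carry a symbol. RNA sequencing had been carried out on LPC-HRas cells, which the labels call mouse hepatocellular carcinoma cells. The 2 groups were cells that received lentivirus with a hairpin against ETV4 (shETV4) and cells that received lentivirus with the control hairpin (shRFP), with 1 library each. Both groups therefore share the cell line and the viral infection, and the labels do not say how many hairpins or clones were used. The value column of each library carries a 2 after the name of its group, and what it marks, such as a replicate or a run, is unknown.

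Actin filaments and bundles of myosin form the stress fibres by which adherent cells pull on their matrix. Their genes are controlled in part by SRF, which binds a short DNA element, the CArG box, together with one of 2 kinds of partner. Myocardin-related factors (MRTF) carry the actin and contractile programme and are themselves held back by unpolymerised actin. The ternary complex factors of the ETS family, such as Elk1, carry the growth-factor response of immediate early genes. In liver, Acta2 and Tagln are best known from activated stellate cells and from vascular smooth muscle, while Actb and Actg1 are made by nearly every cell.

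Levels are TPM, transcript abundances corrected for length that add up to the same total in every library. Etv4 itself, the gene the hairpin is directed against, was at 16.2 TPM in the shETV4 library and 73.2 TPM in the shRFP library, or 4.52-fold lower. Differences are log2(TPM + 1) in shETV4 minus the same in shRFP. On this scale a gene of low level shows less than its plain ratio. A gene was evaluated if either library had it at 1 TPM or above, which 12968 genes and all 37 members were, and was called at a difference of 1 or more in either direction, which is 2-fold. With 1 library per group there is no replicate check, no error and no test, so every value below describes these 2 libraries only. TPM keep no depth, so the counting error behind a value is unknown. In cultures measured in bulk, fewer cells that express a gene and less of its RNA per cell cannot be told apart.

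The members were lower in the shETV4 library almost throughout, by a modest amount. Of the 37, 34 lay below 0, 3 were called lower (Cnn1, Myl9 and Tagln) and none was called higher. Their median difference was -0.48, against -0.10 over all evaluated genes and -0.01 over the 3280 genes that reached 50 TPM in either library, where 30 members lie. Over all evaluated genes 7.06% were called lower, 3.39% were called higher and 58.3% lay below 0, so the count called at 2-fold, 8.11% of the members, was near the background. Among genes at 50 TPM or more, 3.54% were called lower and 51.8% lay below 0.

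A lower fold took in more of the members. At 1.5-fold, 13 members (35.1%) were lower and 1 was higher, where 20.0% of all evaluated genes were lower and 8.61% higher, and 11.5% of the genes at 50 TPM or more were lower. A further 21 members lay below 0 but within 1.5-fold. Since the list was drawn up with these differences known, the counts describe the members and nothing is read from their distance to the background.

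**Figure D1:**
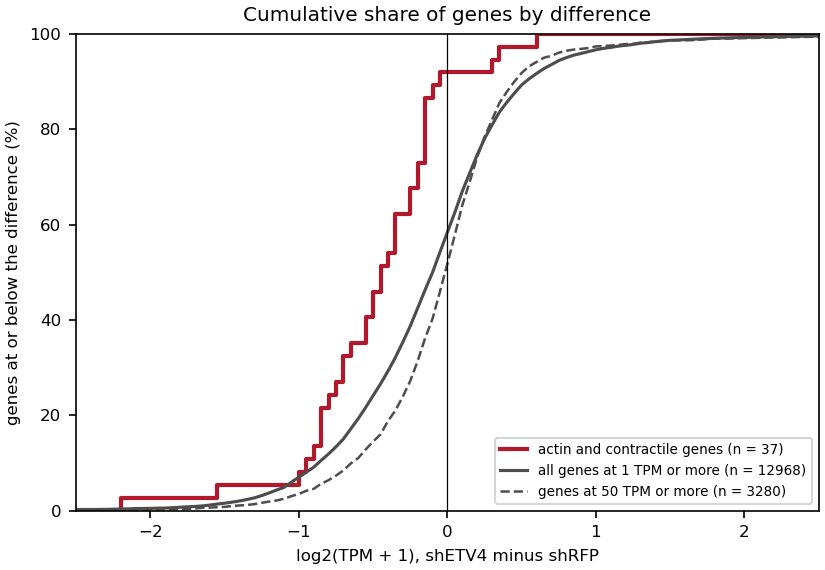
Cumulative share of genes (vertical axis, %) at or below each difference in log2(TPM + 1), shETV4 minus shRFP (horizontal axis), for the 37 actin and contractile genes, all 12968 evaluated genes and the 3280 at 50 TPM or more. At 0 the members' curve stands at 91.9%, against 58.4% for all evaluated genes and 51.8% for those at 50 TPM or more, while the curves lie close together at -1.

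Since the CArG box is the element that SRF binds, the promoters that held one are shown for the 4 such members with the largest differences. Promoter windows of 300 bases, 250 before the start of transcription and 50 from it, were taken from RefSeq on GRCm38.p6 and were found for 34 members; Actb, Tagln and Tgfb1i1 had none. A CArG box, written as CC, then 6 letters of A or T, then GG, reads as a CArG box on either strand, so a search of 1 strand covers both. In the lines below the box is in capitals and the rest of the window in lower case, on the strand of the gene and in the direction of transcription. The window of Fhl1 belongs to an annotated start inside the gene. The windows are chr2:156775214-156775513 (plus strand) for Myl9, chrX:56779433-56779732 (plus strand) for Fhl1, chr14:20929148-20929447 (plus strand) for Vcl and chr11:120348446-120348745 (minus strand) for Actg1.
Myl9: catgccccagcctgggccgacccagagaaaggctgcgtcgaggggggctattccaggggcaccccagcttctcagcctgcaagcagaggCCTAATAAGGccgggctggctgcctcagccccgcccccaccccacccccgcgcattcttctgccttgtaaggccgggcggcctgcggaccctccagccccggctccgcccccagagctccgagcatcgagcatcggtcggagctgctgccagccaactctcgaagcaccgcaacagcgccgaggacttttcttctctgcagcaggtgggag
Fhl1: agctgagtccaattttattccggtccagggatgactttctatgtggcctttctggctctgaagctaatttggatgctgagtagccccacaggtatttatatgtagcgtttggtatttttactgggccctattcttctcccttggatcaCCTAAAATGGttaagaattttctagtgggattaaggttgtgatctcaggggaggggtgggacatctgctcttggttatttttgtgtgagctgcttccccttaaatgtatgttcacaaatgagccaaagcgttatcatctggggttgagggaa
Vcl: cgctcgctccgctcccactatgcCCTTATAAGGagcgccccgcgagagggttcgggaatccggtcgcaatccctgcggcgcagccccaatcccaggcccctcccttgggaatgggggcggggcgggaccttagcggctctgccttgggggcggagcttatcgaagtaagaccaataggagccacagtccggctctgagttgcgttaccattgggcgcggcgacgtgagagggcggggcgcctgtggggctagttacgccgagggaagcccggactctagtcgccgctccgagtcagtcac
Actg1: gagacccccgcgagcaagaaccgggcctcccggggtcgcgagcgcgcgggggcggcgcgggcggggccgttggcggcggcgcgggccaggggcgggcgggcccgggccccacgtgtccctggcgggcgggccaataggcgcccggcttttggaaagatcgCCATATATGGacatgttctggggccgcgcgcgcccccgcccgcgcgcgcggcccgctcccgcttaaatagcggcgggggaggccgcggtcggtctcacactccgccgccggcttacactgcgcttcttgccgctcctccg

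A box was present in a window of 8 of the 34 members, or 23.5%, and in 22.5% of their 40 windows, while 1.63% of all 32851 windows held one. The members were listed with many known SRF targets among them, so nothing is read from this contrast. The boxes began at -161 in Myl9, -102 in Fhl1, -227 in Vcl and -90 in Actg1, counted in bases from the start of transcription. Srf had a pair of boxes in its own promoter, CCATATAAGG at -82 and CCATAAAAGG at -62. Myl6 and Cnn2 had 1 box each, CCTTATATGG at -50 and CCTTATAAGG at -56, and Fhl2 had 1 at each of its annotated starts. The window of Myl6 that held the box, which is not the only window of that gene, and 1 of those of Fhl2 also belong to annotated starts inside the gene.

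All 8 of these genes lay below 0, with a median difference of -0.66 and a range of -1.57 to -0.16, and 1 of them, Myl9, was called lower. Of the 26 members whose windows held no box, 23 lay below 0 and 1, Cnn1, was called lower, with a median of -0.36 and a range of -2.21 to 0.60. The ranges overlap, and over all evaluated genes 58.3% lay below 0 and 7.06% were called lower. ETS-type words were also counted on both strands, neither of which contains the other: CCGGAAGT was in the window of 1 member, Myl12b (2.94% of members, 4.31% of all genes), and AGGAAG was in those of 11 (32.4%, against 38.4%). A match is a description of these windows and not a site of binding. A window with no match can still belong to a gene with a looser box or one outside the window. The split is thus not one of SRF targets against other genes.

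**Figure D2:**
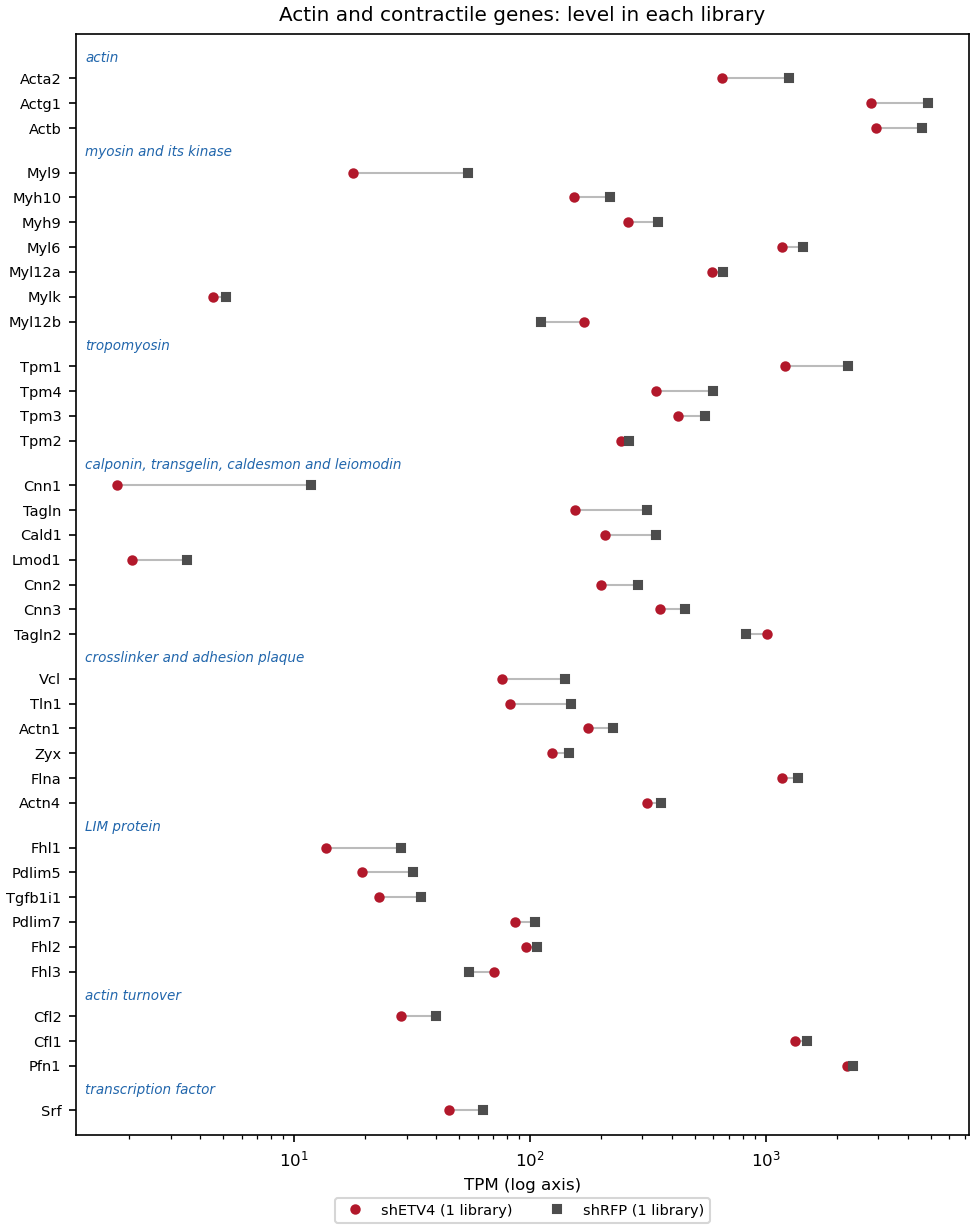
TPM of each member (horizontal log axis) in the shETV4 library (circles) and the shRFP library (squares), 1 library each, grouped by role and ordered by difference within a role. The circle lies left of the square for 34 of the 37 genes, and to its right for Myl12b, Tagln2 and Fhl3.

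The actins were lower as a class. Acta2, the smooth muscle actin (chromosome 19, 34241090 to 34255590, minus strand of GRCm38), was at 655 TPM in shETV4 and 1256 TPM in shRFP, 1.92-fold lower and just within the 2-fold limit. Actg1 (chromosome 11, 120345690 to 120348542, minus strand), the gamma cytoplasmic actin, was at 2804 TPM in shETV4 and 4884 TPM in shRFP. Actb (chromosome 5, 142903115 to 142906754, minus strand), the beta cytoplasmic actin that often serves as a reference gene, was at 2930 TPM in shETV4 and 4603 TPM in shRFP. The cytoplasmic forms were thus 1.74-fold and 1.57-fold lower. Together the 3 actins held 0.639% of all TPM in shETV4 and 1.07% in shRFP. Among named genes Actb took rank 45 by level in shETV4 and rank 13 in shRFP, and Actg1 took rank 48 in shETV4 and rank 11 in shRFP. Actin genes are close copies of one another in their coding parts, and the sources used here do not give how reads that match several were assigned, so the division among them is less certain than their sum. The muscle actin genes outside the group were at lower levels: Actg2 was at 14.0 TPM in shETV4 and 16.6 TPM in shRFP, Acta1 at 0.19 TPM in shETV4 and 0.36 TPM in shRFP, and Actc1 was listed at 0 in both.

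Among the myosins a light chain of smooth muscle stood out. Myl9 (ENSMUSG00000067818, chromosome 2, 156775420 to 156781658, plus strand), a regulatory light chain, was at 17.7 TPM in shETV4 and 54.4 TPM in shRFP, 3.07-fold lower at a difference of -1.57. Its rank from the lowest difference was 174 of the 12968 evaluated genes. The heavy chains of non-muscle myosin were lower by less. Myh9 was at 261 TPM in shETV4 and 351 TPM in shRFP, and Myh10 was at 153 TPM in shETV4 and 219 TPM in shRFP. The essential light chain Myl6 was at 1168 TPM in shETV4 and 1436 TPM in shRFP. Mylk, whose kinase phosphorylates the regulatory light chains and so starts contraction, was low in both libraries, at 4.55 TPM in shETV4 and 5.16 TPM in shRFP.

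The non-muscle regulatory light chains Myl12a and Myl12b need to be read with another record of their locus on chromosome 17. Myl12a was at 590 TPM in shETV4 and 659 TPM in shRFP. Myl12b was at 169 TPM in shETV4 and 111 TPM in shRFP, the highest difference of all members at 0.60. GENCODE M21 places in the same locus a record that the deposited files call Gm49909 and that GENCODE itself names Myl12b, and 26.7% of the exonic bases of the Myl12b record lie in its exons. Gm49909 was far higher than Myl12b itself, at 1232 TPM in shETV4 and 1242 TPM in shRFP. The 3 records summed to 1991 TPM in shETV4 and 2013 TPM in shRFP, a difference of -0.02. The sources used here do not give how reads were divided among these records, so the higher value of Myl12b is uncertain.

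The 4 tropomyosins, which lie along the actin filament and control the access of myosin, split in size. Tpm1 was at 1202 TPM in shETV4 and 2224 TPM in shRFP, 1.85-fold lower. Tpm4 was at 343 TPM in shETV4 and 595 TPM in shRFP, 1.74-fold lower. The other two were closer between libraries. Tpm3 was at 426 TPM in shETV4 and 552 TPM in shRFP and Tpm2, a form of muscle, at 243 TPM in shETV4 and 262 TPM in shRFP. Summed, the tropomyosins stood at 60.9% of their shRFP level in shETV4, about the same as the 59.5% of the actins.

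Calponins and transgelins, which bind actin filaments, included the lowest difference of the group. Cnn1, smooth muscle calponin (ENSMUSG00000001349, chromosome 9, 22099216 to 22109630, plus strand), was at 1.77 TPM in shETV4 and 11.8 TPM in shRFP, 6.67-fold lower. Its difference of -2.21 ranked 48 from the lowest of all evaluated genes and close to that of Etv4, -2.11. Both levels of Cnn1 are low, so its ratio rests on little RNA. Tagln (ENSMUSG00000032085, chromosome 9, 45929619 to 45936058, minus strand), also called SM22, was at 156 TPM in shETV4 and 314 TPM in shRFP, 2.01-fold lower and at the edge of a call, which was lost with a pseudocount of 5 and on each of the 3 other scales tried.

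The paralogs of broader expression differed less or lay on the other side of 0. Cnn2 was at 201 TPM in shETV4 and 288 TPM in shRFP, and Cnn3 at 355 TPM in shETV4 and 454 TPM in shRFP. Tagln2 was higher in shETV4, at 1013 TPM, than in shRFP, at 829 TPM. Cald1, caldesmon, which ties actin to myosin, was 1.65-fold lower, at 208 TPM in shETV4 and 343 TPM in shRFP. Lmod1, a nucleator of actin filaments in smooth muscle, was near the limit of evaluation at 2.06 TPM in shETV4 and 3.52 TPM in shRFP.

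Set within its own family, the smooth muscle form took a smaller share in shETV4 in the 4 families that have a clear pair of forms, a grouping of members chosen after the values were seen. Actg2, a smooth muscle actin that is no member, went the other way, at 0.218% of the TPM of the 4 actins Acta2, Actb, Actg1 and Actg2 in shETV4 and 0.155% in shRFP. Tagln was 13.4% of the transgelin TPM in shETV4 and 27.5% in shRFP. Myl9 was 2.28% of the regulatory light chain TPM in shETV4 and 6.60% in shRFP, or 0.882% in shETV4 and 2.63% in shRFP with Gm49909 counted in. Cnn1 was 0.318% of the calponin TPM in shETV4 and 1.57% in shRFP. Acta2 made the smallest relative change, at 10.2% of the 3 actins in shETV4 and 11.7% in shRFP, since the cytoplasmic actins were lower as well. With adjustment for base composition, described further on, Acta2 (-0.87) no longer lay below Actg1 (-0.96), while the order in the other 3 families was kept. A share within a library does not depend on how that library was scaled. Tropomyosin was not one of these families. Of its 4 genes Tpm1 differed most and Tpm2 least. Tpm2, a form of muscle, stood at 92.6% of its shRFP level in shETV4, against 60.9% for the summed tropomyosins. Its share of the tropomyosin TPM was therefore larger in shETV4, opposite to the 4 families above.

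**Figure D3:**
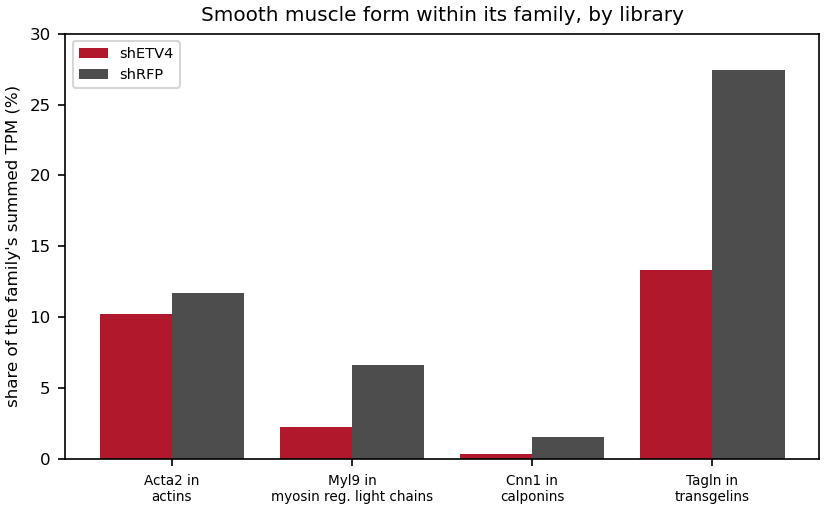
Share of the summed TPM of a family (vertical axis, %) that the smooth muscle form held in the shETV4 library (left bars) and in the shRFP library (right bars), 1 library each, with no error bars because there are no replicates. All 4 left bars are shorter than their right bars, with the widest gap for Tagln, 13.4% against 27.5%.

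The 6 genes for proteins that bundle actin and anchor it at adhesion plaques all lay below 0, and those of the plaque core differed most. Vcl, vinculin, was at 76.0 TPM in shETV4 and 141 TPM in shRFP, 1.85-fold lower. Tln1, talin, which links integrins to vinculin and actin, was at 82.3 TPM in shETV4 and 149.5 TPM in shRFP, 1.82-fold lower. The others were within 1.5-fold. Actn1 and Actn4, the alpha-actinins that crosslink filaments, were at 176 and 314 TPM in shETV4 and at 226 and 359 TPM in shRFP. Flna, filamin A, was at 1174 TPM in shETV4 and 1371 TPM in shRFP. Zyx, zyxin, which gathers on stretched stress fibres, was at 125 TPM in shETV4 and 146 TPM in shRFP.

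LIM-domain proteins, which sit on stress fibres and Z-discs, were mixed. Fhl1 was at 13.7 TPM in shETV4 and 28.4 TPM in shRFP, a plain ratio of 2.07-fold that stays just inside 2-fold on the log2(TPM + 1) scale. Pdlim5 was at 19.4 TPM in shETV4 and 32.1 TPM in shRFP, and Tgfb1i1, which encodes the paxillin relative Hic-5, was at 22.9 TPM in shETV4 and 34.6 TPM in shRFP. Fhl2 and Pdlim7 were closer between libraries. Fhl2 was at 96.0 TPM in shETV4 and 108 TPM in shRFP, and Pdlim7 at 86.8 TPM in shETV4 and 105 TPM in shRFP. Fhl3 went the other way, at 70.7 TPM in shETV4 and 55.2 TPM in shRFP.

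The factors of filament turnover had the smallest median difference of any role, -0.17. Pfn1, profilin, which feeds actin monomers to growing filaments, was at 2212 TPM in shETV4 and 2353 TPM in shRFP. Cfl1, the main cofilin, which severs filaments, was at 1327 TPM in shETV4 and 1497 TPM in shRFP. Cfl2, the cofilin of muscle, was at 28.4 TPM in shETV4 and 40.1 TPM in shRFP, and its place is discussed with base composition. Srf itself (chromosome 17, 46548329 to 46556175, minus strand) was at 45.2 TPM in shETV4 and 63.5 TPM in shRFP, a difference of -0.48. In order of difference it is the middle gene of the group, so its value is the group's median by definition.

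Base composition moved with the differences across the whole of these libraries. The rank correlation of the difference with the GC content of a gene's transcripts was 0.52 over 12947 genes, which share 2 libraries and are not independent. Over the 37 members it was 0.26. The members have a median GC content of 53.5%, somewhat above the 50.7% of all evaluated genes. After the running median of the difference over GC content was subtracted, the members' median was -0.46 and 33 of 37 lay below 0. Over all genes the median was then -0.0004 and 50.1% lay below 0, values that the subtraction itself sets. Over all genes the adjustment gave 518 called higher and 300 called lower, against 439 called higher and 916 called lower without it. Cnn1 (-2.34), Myl9 (-1.69) and Tagln (-1.01) were again the 3 members called lower, or 8.11%, against 2.32% of all genes. Cfl2 alone changed sign, to 0.28. Its GC content of 39.3% is the lowest of the group.

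**Figure D4:**
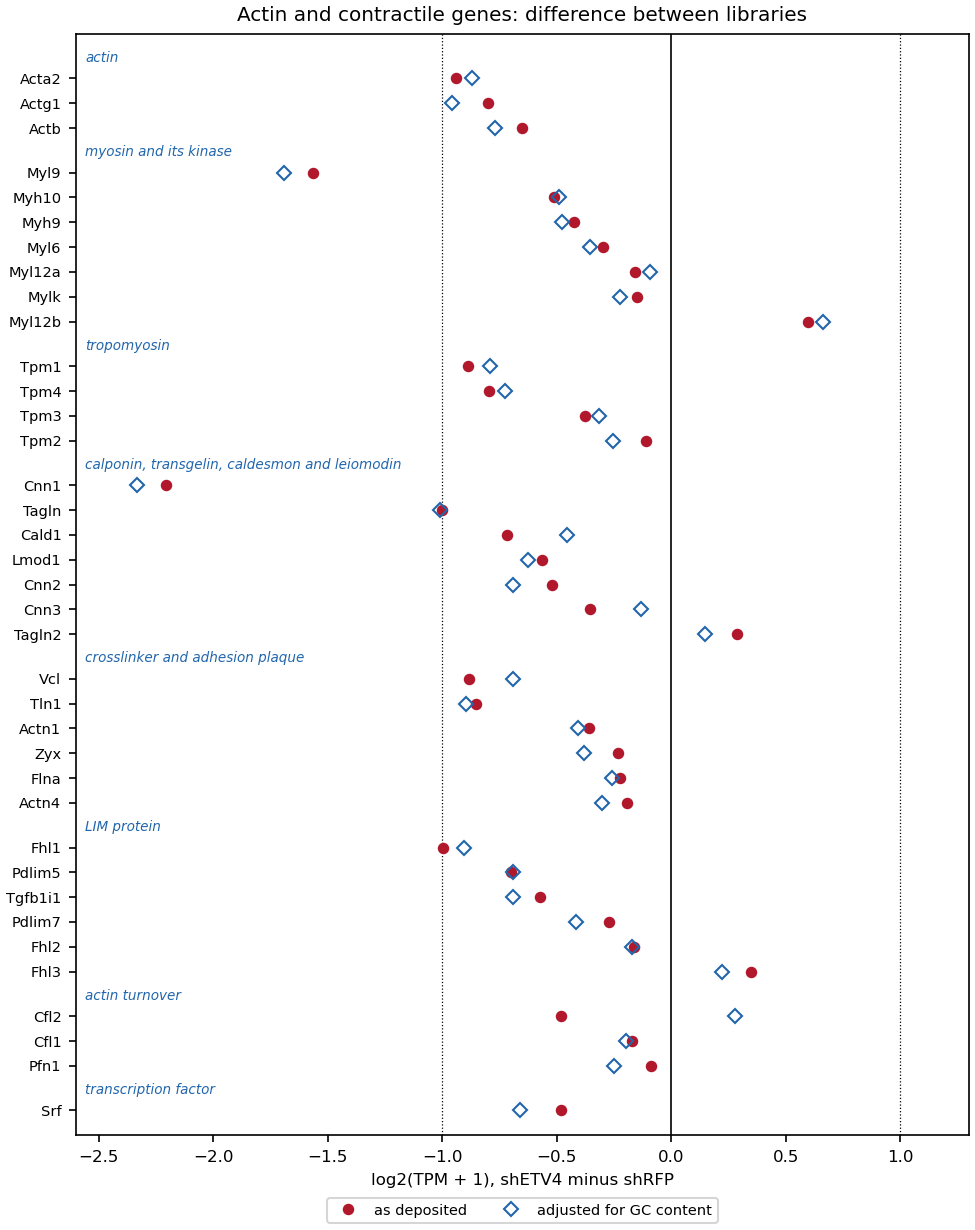
Difference in log2(TPM + 1), shETV4 minus shRFP (horizontal axis), of each member as deposited (filled circles) and after adjustment for GC content (open diamonds), with dotted lines at the limits of a call, -1 and 1. Cnn1, Myl9 and Tagln lie at or beyond -1 in both forms, and Cfl2 moves across 0, to 0.28.

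Overlapping annotation touched some of these values. Of the members, 22 share no exonic base with another gene, among them Acta2, Actb, Cnn1, Myl9 and Tpm1. Tagln shares 67.9% of its exonic bases with other genes, and 62.4% of its exonic bases with the antisense record Gm48529, which was at 0.75 TPM in shETV4 and 1.48 TPM in shRFP. Vcl shares 25.5% of its exonic bases with Ap3m1 on the other strand. That gene was at 9.99 TPM in shETV4 and 27.5 TPM in shRFP, 2.76-fold lower. The sources used here do not give whether reads were assigned by strand, so reads of such partners cannot be told apart, and the part of Ap3m1 in the value of Vcl was not tested.

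The partners of SRF had a median difference nearer 0 than the members. Of 6 cofactors 5 were evaluated, none was called and their median difference was -0.11. Mrtfa was at 29.3 TPM in shETV4 and 28.2 TPM in shRFP, and Mrtfb was at 13.7 TPM in shETV4 and 14.8 TPM in shRFP. Myocd, the cofactor of smooth and cardiac muscle, was at 0.02 TPM in shETV4 and listed at 0 in shRFP. Of the ternary complex factors, Elk1 was at 29.6 TPM in shETV4 and 21.8 TPM in shRFP, Elk3 at 27.8 TPM in shETV4 and 35.6 TPM in shRFP and Elk4 at 16.6 TPM in shETV4 and 18.0 TPM in shRFP. The levels of these RNAs say nothing of where the proteins are in the cell.

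Genes of the other branch of SRF stood on the opposite side. Of 10 immediate early genes, 9 were evaluated, none was called and all 9 lay above 0, with a median difference of 0.63. Over all evaluated genes 58.3% lay below 0. After adjustment for GC content the median of the list was 0.48 and Fos lay at -0.08. Egr1, a zinc finger factor induced by growth factors, was at 34.1 TPM in shETV4 and 16.8 TPM in shRFP, just inside 2-fold on the scale used. Egr3 was at 2.69 TPM in shETV4 and 1.31 TPM in shRFP, and Junb was at 116 TPM in shETV4 and 73.4 TPM in shRFP. Fos was low and nearly equal, at 3.22 TPM in shETV4 and 3.11 TPM in shRFP. The values of this list and of the members were both known when the lists were written, so their opposite sides are given as a description.

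Further targets of MRTF and SRF outside the group had a median difference near that of all evaluated genes. Of 20 such genes 14 were evaluated and 9 lay below 0, where 58.3% of all evaluated genes did. The median difference was -0.11, against -0.10 over all evaluated genes. After adjustment for GC content it was -0.18, against -0.0004 over all genes. Nexn, which encodes the F-actin-binding protein nexilin, was the 1 called lower, at 7.52 TPM in shETV4 and 24.2 TPM in shRFP, and after adjustment for GC content it lay at -0.82. Filip1l followed at 9.76 TPM in shETV4 and 19.4 TPM in shRFP. Csrp1 and Lasp1, actin-binding LIM proteins, were nearly equal, at 205 and 177 TPM in shETV4 and 216 and 168 TPM in shRFP. Of the 14 evaluated genes Pdlim4 had the highest difference, at 14.3 TPM in shETV4 and 9.63 TPM in shRFP.

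Other parts of the cytoskeleton had a few genes each called lower and none called higher. Of 25 genes of actin nucleation, capping and turnover, Wasl (6.94 TPM in shETV4, 17.6 TPM in shRFP) and Capza1 (46.6 TPM in shETV4, 94.3 TPM in shRFP) were called lower, and the median was -0.17. Gsn, gelsolin, had the highest difference among them, at 328 TPM in shETV4 and 203 TPM in shRFP. Of 15 bundling and membrane linker genes evaluated, Pls3 (51.2 TPM in shETV4, 131 TPM in shRFP) and Rdx (27.8 TPM in shETV4, 60.7 TPM in shRFP) were called lower, at a median of -0.30. Of 16 further plaque genes, Lims1 (4.76 TPM in shETV4, 19.6 TPM in shRFP), Lpp (8.78 TPM in shETV4, 22.2 TPM in shRFP) and Fermt2 (25.4 TPM in shETV4, 55.4 TPM in shRFP) were called lower, at a median of -0.16. Of 10 other myosins evaluated, Myo5a (14.5 TPM in shETV4, 34.4 TPM in shRFP) and Myo6 (2.75 TPM in shETV4, 6.73 TPM in shRFP) were called lower, at a median of 0.06. The highest evaluated differences were those of Add1 among the bundling and linker genes (180.3 TPM in shETV4, 135 TPM in shRFP), Trip6 among the plaque genes (95.1 TPM in shETV4, 68.4 TPM in shRFP) and Myo10 among the myosins (121 TPM in shETV4, 85.6 TPM in shRFP). Some of these calls lie at the limit. On all 3 other scales 1 of the 25 nucleation and turnover genes was called, and with a pseudocount of 5 none was. Of the other myosins 1 was called with a pseudocount of 5 and on 2 of the 3 other scales, and of the plaque genes 1 was called with a pseudocount of 5.

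The 7 lists of this pathway outside the members hold 93 different evaluated genes, of which 10 were called lower, or 10.8%, against 7.06% of all evaluated genes. These 10 had a GC content between 39.7% and 48.3%, and the 3 members called lower had one between 52.3% and 56.6%. After adjustment for GC content 2 of the 93, Lims1 (-1.28) and Wasl (-1.01), were called lower, or 2.15%, against 2.32% of all genes. The other 8 were no longer called, some by a small margin, such as Myo5a (-0.93), Lpp (-0.87) and Nexn (-0.82). The part of base composition in these values was not tested.

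**Figure D5:**
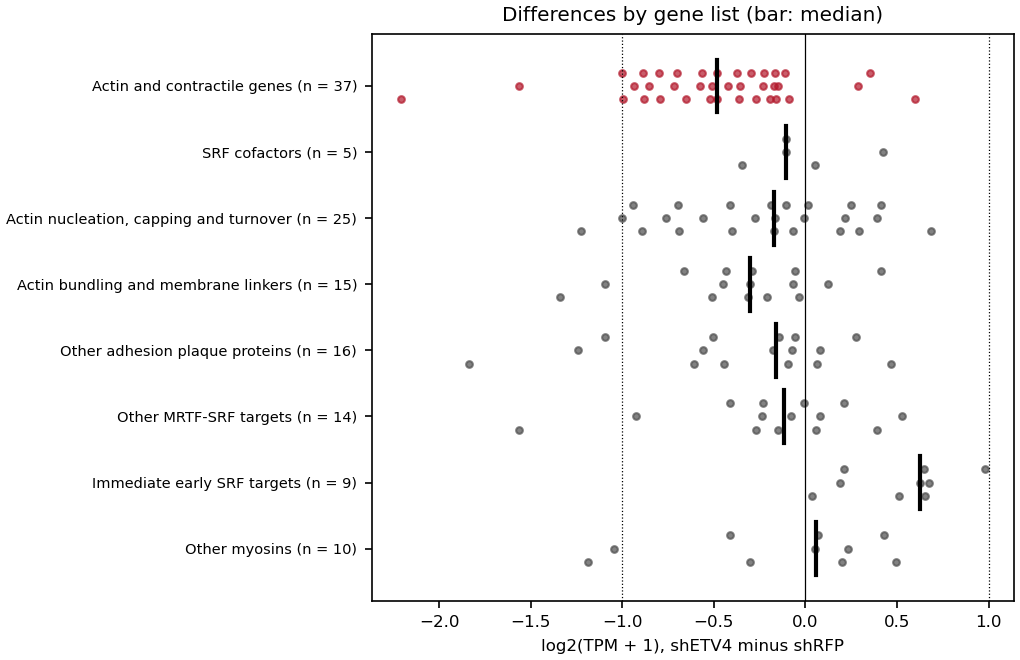
Difference in log2(TPM + 1), shETV4 minus shRFP (horizontal axis), of the evaluated genes of each list, 1 point per gene with a bar at the median and dotted lines at -1 and 1; the vertical scatter within a list only separates the points. The members' median is -0.48, that of the immediate early genes 0.63, and those of the other 6 lists lie from -0.30 to 0.06.

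Markers of cells that are rich in contractile genes were looked at beside these results. Of 10 smooth muscle and pericyte markers 5 were evaluated, none was called, and their summed level was 126 TPM in shETV4 and 111 TPM in shRFP. Pdgfrb, a receptor that fibroblasts and stellate cells also make, held most of it, at 77.2 TPM in shETV4 and 59.5 TPM in shRFP, and without it the sum was 48.8 TPM in shETV4 and 52.0 TPM in shRFP. Mcam (22.0 TPM in shETV4, 26.4 TPM in shRFP) and Actg2 lay below 0. The defining genes Myh11 (0.06 TPM in shETV4, 0.07 TPM in shRFP) and Des (0.64 TPM in shETV4, 0.02 TPM in shRFP) were near 0. Of 12 striated muscle markers 3 were evaluated, with a sum of 38.0 TPM in shETV4 and 31.9 TPM in shRFP, and Actc1, Myl2, Myl3 and Myh6 were listed at 0 in both. Of 12 stellate cell and fibroblast markers 7 were evaluated, with nearly equal sums of 4984 TPM in shETV4 and 4977 TPM in shRFP. Vim held most of both sums and was the 1 gene of the 7 that lay below 0, where 58.3% of all evaluated genes did. The near equality of the sums is therefore mainly that of Vim, and the rest of the 7 were higher in shETV4. Lrat, a marker of quiescent stellate cells, was listed at 0 in both, while Col1a1 was at 229 TPM in shETV4 and 200 TPM in shRFP and Vim at 4104 TPM in shETV4 and 4324 TPM in shRFP. The highest evaluated differences were those of Cspg4 (7.82 TPM in shETV4, 4.45 TPM in shRFP) in smooth muscle and pericytes, Mb (3.54 TPM in shETV4, 1.82 TPM in shRFP) in striated muscle and Col3a1 (538 TPM in shETV4, 367.5 TPM in shRFP) in stellate cells and fibroblasts. The lowest of the striated muscle genes was Tnnt2, at 30.4 TPM in shETV4 and 27.2 TPM in shRFP. The median difference was 0.31 for striated muscle and 0.37 for stellate cells and fibroblasts. For smooth muscle and pericytes it was 0.03, and after adjustment for GC content it was -0.15.

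Hepatocyte genes were near 0 in these cells, which the labels place in hepatocellular carcinoma. None of 10 hepatocyte markers reached 1 TPM in either library, and Alb was listed at 0 in both. Of 8 liver progenitor and biliary markers 4 were evaluated, at a median difference of 0.28. Cd24a was called lower, at 55.5 TPM in shETV4 and 132 TPM in shRFP, while Sox9 had the highest difference, at 45.4 TPM in shETV4 and 28.0 TPM in shRFP. Of 8 leukocyte and 8 endothelial markers 1 each was evaluated, Cd68 at 1.98 TPM in shETV4 and 1.01 TPM in shRFP and Egfl7 at 18.8 TPM in shETV4 and 13.5 TPM in shRFP.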

How the data were processed

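RNA was sequenced in 2 libraries, 1 per group, from TruSeq preparations named in the labels' protocols. Per the labels and files, the authors deposited 1 TPM value per gene and library; no header names the unit, which follows from sums of 999870.3 in shETV4 and 999999.77 in shRFP. HISAT2, RSEM and the build GRCm38.p4 appear, with no role or version, in the submitters' processing notes. The sources used here do not give annotation release, strand setting or filters, and TPM keep no depth. Groups come from the treatment labels.

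Of 55640 records, 153 without a symbol, holding 2.67% of TPM in shETV4 and 1.13% in shRFP, were left out. GENCODE M21 (GRCm38) gave coordinates, GC content, length and exon overlap by gene identifier for 99.5% of the rest. Differences, calls, lists and motifs were computed as given in the report with Python 3.11.15, numpy 2.4.6, pandas 2.3.3 and scipy 1.17.1, and figures with matplotlib 3.10.9. The adjustment for GC content subtracted the median difference along 50 bins of genes. The procedure was checked on simulated data with small noise, built from genes at 5 TPM or more in shRFP. Lower levels in shRFP and changes near 2-fold were not simulated, so the check does not cover them. No count model or test could be used. Members and lists were chosen with earlier results of these data known. Every member is named; of the evaluated genes of the other lists, those called and the one with the largest difference in each direction are named, with the SRF cofactors and other actins. Genes given beside these, such as Csrp1, Lasp1, Junb, Fos and the cell type markers, were chosen after their values were seen. Alternatives covered the pseudocount, filter, scale, GC content, threshold and treatment of records. Some genes of a related pathway are not reported here.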

Additional observations from a re-analysis of the deposited data

How the results depend on the processing

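Cfl2 changed sign when GC content was adjusted. The members' median difference stayed between -0.49 (pseudocount 0.1) and -0.40 (trimmed mean of log ratios set to 0), and the number of members below 0 was 33 or 34, under every alternative of pseudocount, filter, scale, GC content and records. At 1.5-fold, 13 members were lower and 1 higher; at 3-fold 1 was lower, Cnn1. Fhl1 passed 2-fold with pseudocount 0.1, and Tagln came inside it with pseudocount 5 and on all 3 other scales. Summing Myl12a, Myl12b and Gm49909 as 1 locus, an alternative chosen after seeing the data, left 3 called lower. Summing records of a symbol changed nothing, since every member has 1 record. Over all evaluated genes, 439 were called higher and 916 lower. These counts became 674 and 1459 with pseudocount 0.1, 167 and 267 with pseudocount 5, 1117 and 2591 at 1.5-fold, and 162 and 162 at 3-fold. With a filter of 5 TPM 252 were called higher, since fewer genes are evaluated, and with GC content adjusted 300 were called lower. No paired analysis was possible because each group has 1 library. Leaving out a library was not possible either, and the depth behind the values is unknown.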
